A study of Mus musculus with 24 samples.

Results

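Round spermatids, the haploid germ cells that follow meiosis, were compared between Ago413-/- (null) and Ago413+/- (heterozygous) male mice by the miRNAs they hold. The comparison uses 8 of the 24 small RNA libraries of the study, 4 null and 4 heterozygous, which are the libraries whose labels give this cell type and these genotypes. Of 1978 mature miRNAs in the count table, 397 reached 10 counts in 3 or more of these 8 libraries and were tested. The other libraries are 4 of wild type (Ago413+/+) round spermatids and 4 of each of the 3 genotypes from pachytene/diplotene spermatocytes, the preceding meiotic stage. The Ago413 allele is a constitutive deletion that takes Ago1 in full and parts of Ago3 and Ago4, so that null mice lack these 3 Argonaute genes in the soma as well as in the germline and keep Ago2. Heterozygous mice carry 1 deleted copy, and wild type mice none. All groups shared the C57BL/6J background and an age of 10 to 15 weeks, with no other treatment. Each library was made from 100 ng of RNA from testes of 2 to 5 mice, from gradient fractions in which, per the labels, above 70% of the cells were of the wanted type, so that other cell types may make up the rest. The study's methods put the purity of round spermatid fractions above that of the spermatocyte fractions. The p-values rest on the spread between these pooled libraries.

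A mature miRNA is a short RNA that is released from a hairpin precursor as 1 strand of a duplex. A strand of the duplex is loaded into an Argonaute protein, which finds target mRNAs mainly through the seed, bases 2 to 8 of the miRNA, while the other strand is usually lost. The strand with more reads is called the major arm here and the other the minor arm. Argonaute proteins protect the miRNAs they hold from decay, and male germ cells hold many miRNAs of the X chromosome, the miR-34 and miR-449 family and several imprinted clusters. The comparison asks how miRNA levels in round spermatids differ when the remaining copy of Ago1, Ago3 and Ago4 is also gone. Deletion of the genes themselves could not be checked, since the table holds counts of miRNAs only.

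The 8 libraries held 384477 to 948061 counts, and miRNAs that passed the filter held 99.8% to 99.9% of them. Totals did not differ detectably, with 603294 ± 257603 (SD, n = 4) in null and 544902 ± 111808 (n = 4) in heterozygous libraries (exact two-sided permutation test, p = 0.686, where 4 against 4 can give no p below 0.0286). Levels are given as CPM (counts set to a common library total of 10 to the power 6) and adjusted by the TMM factors of edgeR, and a count of 0 allows up to 3 counts, or 4.04 to 7.67 CPM by library. The scaling factors ran from 0.782 to 1.15 in null libraries and from 1.03 to 1.08 in heterozygous libraries, with null replicate 3 (0.782) and null replicate 1 (0.912) the lowest. No libraries were near copies of each other. In these bulk samples, fewer cells of a type and less of a miRNA per cell cannot be told apart.

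The mature sequences of the miRNAs on which the comparison turns are those of RefSeq (GRCm38.p6), written 5′ to 3′, with the seed in capitals. Of the 397 miRNAs, 330 had a sequence in the table used, among them 40 of the 52 that changed. The largest decreases that had a sequence are shown because their hairpins are referred to throughout.
miR-146b-3p: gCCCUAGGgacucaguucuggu
miR-409-5p: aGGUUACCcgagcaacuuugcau
miR-409-3p: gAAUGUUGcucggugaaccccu
miR-32-3p: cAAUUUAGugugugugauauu
miR-181c-3p: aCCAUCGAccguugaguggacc
miR-532-3p: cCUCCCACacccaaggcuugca
miR-935: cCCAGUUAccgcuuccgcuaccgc
miR-541-5p: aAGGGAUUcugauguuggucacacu
miR-130b-5p: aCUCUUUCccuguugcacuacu
The increases include 3 let-7 miRNAs with 1 seed, and miR-199a-3p and miR-199b-3p, which are 1 sequence under 2 names.
let-7c-5p: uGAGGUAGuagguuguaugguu
let-7e-5p: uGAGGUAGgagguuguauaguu
miR-98-5p: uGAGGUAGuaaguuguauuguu
miR-99a-5p: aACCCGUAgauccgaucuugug
miR-126a-3p: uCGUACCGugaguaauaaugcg
miR-199a-3p: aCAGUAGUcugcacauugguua
miR-199b-3p: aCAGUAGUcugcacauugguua
miR-760-3p: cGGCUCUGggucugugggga
miR-547-3p: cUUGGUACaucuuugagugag
The next set shows miRNAs that share a seed. miR-195a-5p and miR-497a-5p were both lower, whereas miR-181b-5p was higher and miR-181c-5p and miR-181d-5p lower. miR-16-5p and miR-181a-5p are members that did not pass the test.
miR-195a-5p: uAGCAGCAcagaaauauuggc
miR-497a-5p: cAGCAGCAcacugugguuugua
miR-16-5p: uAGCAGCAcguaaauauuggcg
miR-181b-5p: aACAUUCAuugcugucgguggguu
miR-181c-5p: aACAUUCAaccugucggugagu
miR-181d-5p: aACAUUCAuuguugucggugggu
miR-181a-5p: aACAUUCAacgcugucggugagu
The last set shows both arms of hairpins whose arms had different fold changes.
miR-470-5p: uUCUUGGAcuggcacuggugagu
miR-470-3p: aACCAGUAccuuucugagaaga
miR-146b-5p: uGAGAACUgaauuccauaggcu
miR-148a-3p: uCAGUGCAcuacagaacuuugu
miR-148a-5p: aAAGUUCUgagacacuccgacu
miR-32-5p: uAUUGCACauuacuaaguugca

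Of the 397 miRNAs, 52 changed between null and heterozygous round spermatids (13.1%), by an adjusted p under 0.05 and a log2 fold change of at least 1 in either direction. Decreases outnumbered increases, with 38 lower (9.57%) and 14 higher (3.53%) in null cells. These 38 decreases lay among scarce miRNAs: their median level was 67.7 CPM over the 8 libraries, against 1862 CPM for the increases and 121 CPM for all miRNAs tested. None of the 38 was among the 50 most abundant miRNAs of heterozygous cells, where 5 of the 14 increases lay. At any fold change, 72 miRNAs had an adjusted p under 0.05 (18.1%). Abundant miRNAs under the fold threshold were among them in both directions. Examples are miR-30d-5p (log2 fold change -0.77, adjusted p = 0.0121) and miR-22-3p (0.66, adjusted p = 0.0377), at 16342 and 2350 CPM in heterozygous cells. In 46 of the 52, no null library overlapped a heterozygous one (37 lower and 9 higher), against 86 of all 397 (21.7%; 60 lower, 15.1%, and 26 higher, 6.55%). Lack of overlap was a condition for naming the 8 largest increases and the 8 largest decreases. For those it is a result of the choice and adds no weight. The balance of directions moved with the scaling. With library totals alone, which moves the median of all 397 log2 fold changes from 0.04 to -0.11, 53 miRNAs were lower and 3 higher.

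**Figure D1:**
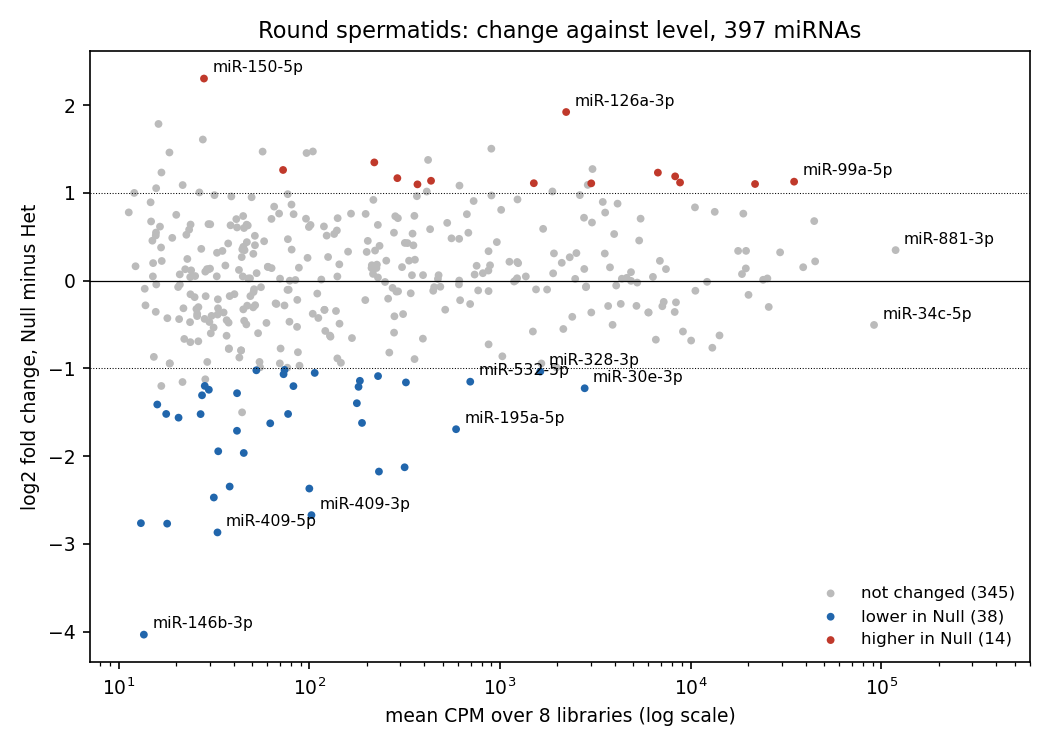
Log2 fold change (null minus heterozygous) of each of 397 miRNAs against its mean CPM over the 8 libraries on a log axis, with dotted lines at 1 and -1. The 38 decreases (blue) lie mostly to the left, at a median of 67.7 CPM, and the 14 increases (red) to the right, at a median of 1862 CPM.

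The largest decrease was that of miR-146b-3p, the minor arm of a hairpin in an intron of Mfsd13a (chr19:46342762-46342870, plus strand, GRCm38.p6). The miR-146 family is known as a brake on inflammatory signalling. The arm stood at 1.68, 0, 1.35 and 2.09 CPM in null replicates 1 to 4 and at 18.4, 27.8, 35.4 and 21.6 CPM in heterozygous replicates 1 to 4. It was thus next to absent from every null library and present in every heterozygous one. The null libraries held 3 counts in all and the heterozygous libraries 57, a ratio of 18.2 with a 95% counting interval of 5.93 to 91.0 (exact). No null library held more than 1 count, so the arm passed the filter through its heterozygous libraries alone. The interval does not allow for this selection. The fitted log2 fold change was -4.03 (SE 0.61, adjusted p = 0.000666). Wild type libraries held 23.1 ± 11.5 CPM (SD, n = 4). The other arm, miR-146b-5p, was at 939 ± 75.3 CPM in null and 832 ± 70.4 CPM in heterozygous cells (log2 fold change 0.17, SE 0.19, adjusted p = 0.567), and of the 3 tested members of the family 0 were higher and 1 lower (33.3%, against 13.1% of all miRNAs), with a median of 0.17.

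Both arms of miR-409 fell, as did miR-541-5p of the same host transcript. These hairpins lie in introns of Mirg within the Dlk1-Dio3 imprinted cluster, whose miRNAs come from the maternal allele (Mir409 at chr12:109743158-109743236 and Mir541 at chr12:109742409-109742498, both on the plus strand). miR-409-5p measured 3.36, 17.9, 2.70 and 10.4 CPM in null replicates 1 to 4 and 43.5, 49, 53.2 and 83.5 CPM in heterozygous replicates 1 to 4 (log2 fold change -2.87, SE 0.48, adjusted p = 0.00124). miR-409-3p, the major arm, measured 21.8, 33.2, 21.6 and 35.4 CPM in null and 119, 96.3, 218 and 275 CPM in heterozygous libraries (log2 fold change -2.67, SE 0.38, adjusted p = 0.000541). For both arms the highest null library lay well under the lowest heterozygous one, and null replicates 1 and 3 were lowest for the 5p arm. miR-541-5p stood at 121, 89.5, 66.1 and 58.4 CPM in null and 349.8, 259.6, 443 and 465 CPM in heterozygous libraries (log2 fold change -2.18, SE 0.42, adjusted p = 0.00345), again with no overlap. The cluster as a whole did not move together: of 109 mature miRNAs of the list, 45 had no count in any of the 8 libraries, 10 were tested, 3 were lower and none higher (30%, against 13.1% called and 9.57% lower of all 397), and the median log2 fold change of the 10 was -0.33. Among the other 7, miR-379-5p was at 0.87 (adjusted p = 0.0421, under the fold threshold) and miR-127-3p at -0.30.

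On the X chromosome, both arms of miR-532 fell. The hairpin lies in an intron of Clcn5 (chrX:7248402-7248497, minus strand), a chloride transporter gene that holds a cluster of miRNAs. miR-532-3p, the minor arm, measured 10.1, 7.67, 16.2 and 2.09 CPM in null replicates 1 to 4 and 50.2, 37.5, 60.7 and 67.6 CPM in heterozygous replicates 1 to 4 (log2 fold change -2.47, SE 0.44, adjusted p = 0.00193). The 5p arm measured 442, 422, 504 and 363 CPM and 1049.5, 729.7, 850.5 and 1219 CPM in the same order (log2 fold change -1.15, SE 0.23, adjusted p = 0.00345). Every null library was below every heterozygous library for both arms. Of 10 miRNAs of the Clcn5 list 5 were tested, of which 0 were higher and 2 lower (40%, against 13.1% of all 397), with a median of -1.15. Its summed level ran from 682 to 1042 CPM in null and from 1171 to 1932 CPM in heterozygous libraries. The remaining members miR-362-3p, miR-362-5p and miR-501-3p had log2 fold changes of -1.50, -0.63 and 0.06.

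A pair of clustered hairpins on chromosome 11, miR-497 (chr11:70234717-70234800, plus strand) and miR-195a (chr11:70235042-70235135, plus strand), was lower in null cells. Their 5p arms carry the seed of miR-15 and miR-16, a family known for restraining cell cycle genes. miR-497a-5p measured 40.3, 43.5, 20.2 and 27.1 CPM in null replicates 1 to 4 and 136, 201, 111 and 220.2 CPM in heterozygous replicates 1 to 4 (log2 fold change -2.37, SE 0.38, adjusted p = 0.00107). miR-195a-5p measured 289, 284, 244 and 294 CPM and 1098, 922, 709 and 862 CPM in the same order (log2 fold change -1.69, SE 0.25, adjusted p = 0.000541). The null libraries of miR-195a-5p lay within 244 to 294 CPM, under all heterozygous ones. The minor arm, miR-195a-3p, was also called (log2 fold change -1.02, SE 0.29, adjusted p = 0.0250), and this call was lost without heterozygous replicate 3 (-0.79, adjusted p = 0.102), null replicate 1 (-0.89, adjusted p = 0.0977) or null replicate 4 (-0.91, adjusted p = 0.0744), and with DESeq2 (-0.999, adjusted p = 0.0139), no filter on low counts (-1.02, adjusted p = 0.0618) or a term for library number (-0.99, adjusted p = 0.0426). Relatives with the same seed did not pass the test: miR-15a-5p was at 0.19, miR-15b-5p at -0.55, miR-16-5p at 0.04 and miR-322-5p at 0.51. Of 11 tested arms in the miR-15/16 family 0 were higher and 3 lower (27.3%, against 13.1% called and 9.57% lower of all 397), with a median of -0.50.

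The miR-181 miRNAs share the seed ACAUUCA and changed in both directions by genomic cluster. miR-181c (chr8:84178873-84178961, minus strand) and miR-181d (chr8:84178716-84178787, minus strand) lie in an intron of Nanos3, a germ cell gene by its known role. miR-181c-5p measured 11.8, 12.8, 5.39 and 12.5 CPM in null replicates 1 to 4 and 28.5, 34.3, 27.8 and 31.7 CPM in heterozygous replicates 1 to 4 (log2 fold change -1.56, SE 0.41, adjusted p = 0.0166). miR-181d-5p measured 123, 136, 127 and 202 CPM and 318, 362, 228 and 337 CPM (log2 fold change -1.09, SE 0.30, adjusted p = 0.0189). Neither overlapped, and the calls were lost without null replicate 3 (-1.30, adjusted p = 0.0667) for the former and without null replicate 1 (-0.97, adjusted p = 0.0837) or null replicate 3 (-1.02, adjusted p = 0.0628) for the latter. The minor arm, miR-181c-3p, held 7 counts over the null and 55 over the heterozygous libraries, a ratio of 7.54 with a 95% counting interval of 3.43 to 19.6. Its fitted log2 fold change was -2.76 (SE 0.64, adjusted p = 0.00866). No null library held more than 2 counts, so this arm too passed the filter through its heterozygous libraries alone. By contrast miR-181b-5p, encoded on chromosomes 1 and 2, was higher in null cells, at 596, 179, 491 and 334 CPM against 90.4, 229, 177 and 217 CPM (log2 fold change 1.17, SE 0.39, adjusted p = 0.0451). Null replicate 2 of miR-181b-5p lay among the heterozygous libraries, and this call was lost without heterozygous replicate 1 (0.95, adjusted p = 0.119), heterozygous replicate 3 (1.18, adjusted p = 0.0728), heterozygous replicate 4 (1.28, adjusted p = 0.0666), null replicate 1 (0.96, adjusted p = 0.126) or null replicate 3 (1.05, adjusted p = 0.117), and with library totals (0.99, adjusted p = 0.0856), the stricter filter of 10 counts in each library (1.06, adjusted p = 0.0581) or a term for library number (1.21, adjusted p = 0.0501). miR-181a-5p, which shares those clusters, was at 0.92 (adjusted p = 0.108).

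Further large decreases came from single hairpins. miR-32-3p, the minor arm of a hairpin in an intron of Tmem245 (chr4:56895229-56895298, minus strand), measured 5.04, 0, 5.39 and 6.26 CPM in null replicates 1 to 4 and 43.5, 24.5, 32.9 and 25.9 CPM in heterozygous replicates 1 to 4 (log2 fold change -2.77, SE 0.57, adjusted p = 0.00450). miR-935, which overlaps an exon of Cacng8 (chr7:3415066-3415156, plus strand), measured 5.04, 15.3, 20.2 and 8.34 CPM and 72, 44.1, 68.3 and 71.9 CPM (log2 fold change -2.35, SE 0.39, adjusted p = 0.00116). Neither miRNA overlapped between the genotypes, which was a condition for the largest decreases. The null levels of miR-32-3p were near the limit that 3 counts set. miR-130b-5p, from an intron of 2610318N02Rik, was at 99.1, 151, 90.3 and 131 CPM in null and 410.1, 339.6, 709 and 596 CPM in heterozygous libraries (log2 fold change -2.13, SE 0.29, adjusted p = 0.000541). miR-676-3p, from an intron of Eda on the X chromosome, was at 129, 79.3, 60.7 and 100.1 CPM and 243, 191, 379.7 and 327 CPM (log2 fold change -1.62, SE 0.31, adjusted p = 0.00345). miR-31-5p was at 30.2, 43.5, 22.9 and 64.6 CPM and 119, 103, 132 and 104 CPM (log2 fold change -1.52, SE 0.31, adjusted p = 0.00450). All 3 were separated in every library and kept their calls when any of the 8 libraries was left out. For miR-130b-5p the log2 fold change then ran from -1.92 to -2.27. The remaining 8 decreases, which are named nowhere else here, ran from -1.95 to -1.02, and 4 of them carry miR-466 or miR-669 names.

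**Figure D2:**
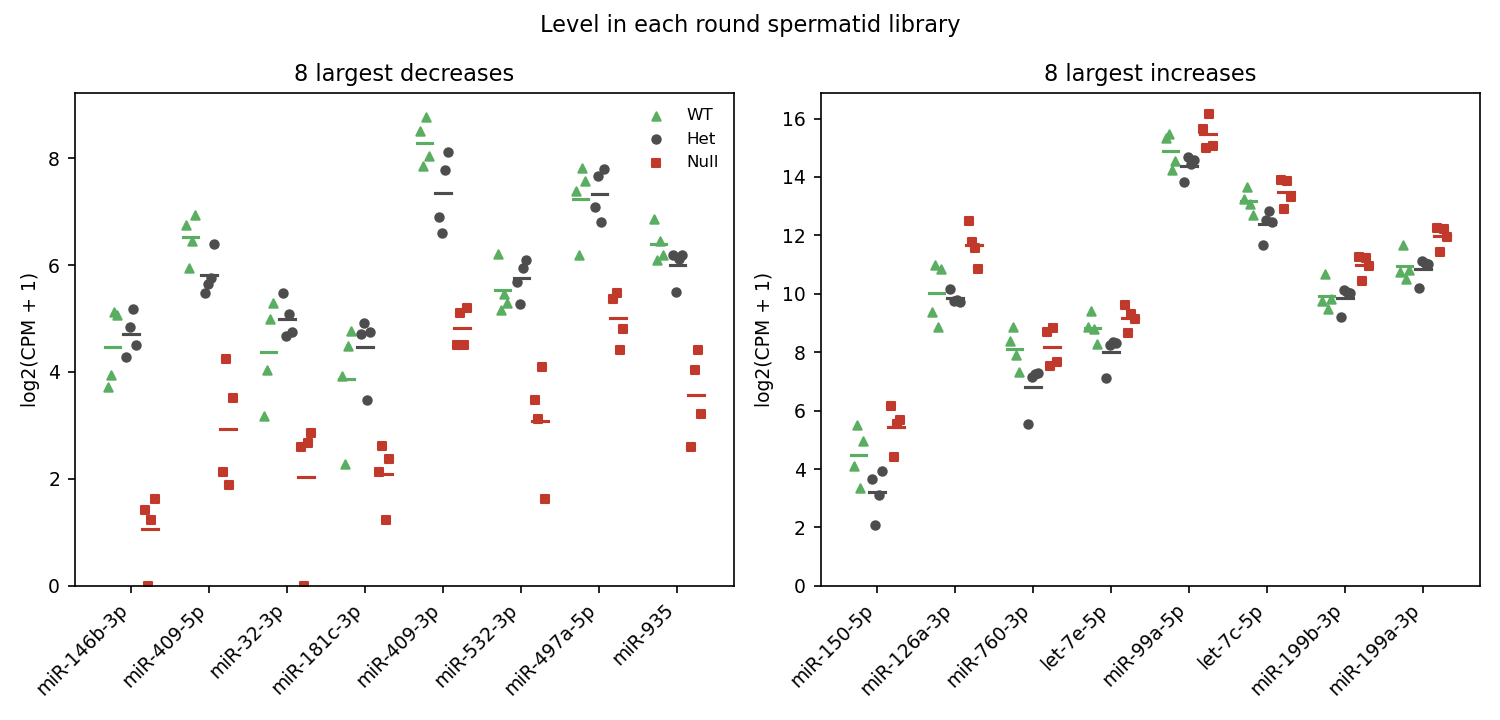
Level of the 8 largest decreases (left) and the 8 largest increases (right) among changed miRNAs without overlap, as log2(CPM + 1), in each wild type (triangles), heterozygous (circles) and null (squares) library; bars mark the mean of 4. The null libraries of miR-146b-3p lie between 0 and 2.09 CPM, under its heterozygous libraries at 18.4 to 35.4 CPM, and those of miR-126a-3p between 1827 and 5744 CPM, above its heterozygous libraries at 835 to 1138 CPM.

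Decreases at higher levels included a miR-30 arm and miR-328-3p. miR-30e-3p, from an intron of Nfyc (chr4:120772606-120772697, minus strand), measured 1669.9, 1936, 1852 and 1193 CPM in null replicates 1 to 4 and 4189.8, 2782, 4275 and 4322 CPM in heterozygous replicates 1 to 4 (log2 fold change -1.23, SE 0.24, adjusted p = 0.00345). miR-328-3p measured 1015, 1082, 1022 and 1143 CPM and 1302, 1779, 2582 and 3076 CPM (log2 fold change -1.04, SE 0.26, adjusted p = 0.0147). The null libraries of miR-328-3p were nearly level, while heterozygous replicate 1 came closest to them, and the call was lost without heterozygous replicate 3 (-0.93, adjusted p = 0.0412), heterozygous replicate 4 (-0.82, adjusted p = 0.0501) or null replicate 1 (-0.97, adjusted p = 0.0522). In the miR-30 family, known for its many targets in differentiating cells, 10 of 11 tested arms had a log2 fold change below 0, as had 184 of all 397 miRNAs. Of the 11, 0 were higher and 2 lower (18.2%, against 13.1% of all), and the median was -0.77. The summed level of the family ran from 40331 to 44688 CPM in null and from 54111 to 58108 CPM in heterozygous libraries. The other called member was miR-30b-3p, a minor arm, at 33.6, 43.5, 72.8 and 48 CPM and 127, 83.3, 132 and 119 CPM (log2 fold change -1.20, SE 0.30, adjusted p = 0.0138), lost without null replicate 1 (-1.01, adjusted p = 0.0576). In the miR-17-92 cluster, a set of growth promoting miRNAs, 0 of 9 tested arms were higher and 1 lower (11.1%), with a median of 0.06, which was -0.07 with library totals. That member was the minor arm miR-92a-1-5p, from an exon of Mir17hg, at 15.1, 17.9, 21.6 and 22.9 CPM in null and 50.2, 81.6, 60.7 and 63.3 CPM in heterozygous libraries (log2 fold change -1.71, SE 0.38, adjusted p = 0.00837). Wild type libraries held 34.8 ± 18.9 CPM of it, between the other genotypes.

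Decreases also ran through the miR-297, miR-466, miR-467 and miR-669 miRNAs, a rodent family repeated many times in introns of Sfmbt2, an imprinted gene, on chromosome 2. The group was chosen by name after its values were seen. All 32 tested members had a log2 fold change below 0, with a median of -0.74 against 0.04 for all miRNAs, and 7 passed the test as lower (21.9%, against 9.57% of all 397) and 0 as higher. Without heterozygous replicate 1, 29 of the 32 were below 0, and without null replicate 1, 30 were, with 4 called lower. miR-466g (chr2:10514595-10514674, plus strand) measured 8.40, 23, 21.6 and 20.9 CPM in null replicates 1 to 4 and 75.3, 55.5, 81 and 76.3 CPM in heterozygous replicates 1 to 4 (log2 fold change -1.96, SE 0.39, adjusted p = 0.00377). miR-669a-3p measured 42, 115, 113 and 121 CPM and 228, 309, 228 and 263 CPM (log2 fold change -1.40, SE 0.32, adjusted p = 0.00837), and its partner miR-669a-5p fell as well (log2 fold change -1.21, SE 0.25, adjusted p = 0.00450). For these 3 arms every null library was below every heterozygous one. Copies of these hairpins are nearly identical (miR-669a alone has many hairpin genes in Sfmbt2), so reads can be assigned to several members and the 32 values are not independent.

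Of 95 minor arms tested, set by the wild type libraries, 14 were lower and 0 higher (14.7% changed). Of 228 major arms 18 were lower and 12 higher (13.2%), against 13.1% changed of all 397, and no test compared the arms as sets. Both arms were tested in 94 hairpins. In 7 of them only the minor arm changed, in 6 only the major arm and in 7 both. The ratio of minor to major arm was lower in all null than in all heterozygous libraries in 12 hairpins (12.8%), higher in 3 (3.19%) and overlapping in 79. The difference between arms was not tested hairpin by hairpin.

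miR-470, a testis miRNA of the X-linked cluster (chrX:66813951-66814025, minus strand), had arms that passed the test in opposite directions. miR-470-5p, among the most abundant miRNAs of the changed set, was at 30665, 25014, 41012 and 21948 CPM in null replicates 1 to 4 and 8970.5, 13476, 17784 and 15084 CPM in heterozygous replicates 1 to 4 (log2 fold change 1.10, SE 0.28, adjusted p = 0.0153). miR-470-3p was at 40.3, 15.3, 25.6 and 39.6 CPM and 97.1, 109, 75.9 and 95 CPM (log2 fold change -1.63, SE 0.32, adjusted p = 0.00345). Counts of the 3p arm were 0.131, 0.0613, 0.0625 and 0.181 per 100 counts of the 5p arm in null libraries and 1.08, 0.812, 0.427 and 0.630 per 100 in heterozygous libraries, with no overlap. The increase of the 5p arm was lost without heterozygous replicate 1 (0.94, adjusted p = 0.0432) or null replicate 3 (0.90, adjusted p = 0.0536), and with library totals (0.92, adjusted p = 0.0166). The decrease of the 3p arm was kept whichever library was left out, at -1.43 to -1.76.

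In the miR-146b hairpin the minor arm made up 0.163, 0, 0.142 and 0.246 counts per 100 of the major arm in null libraries and 2.38, 3.55, 3.83 and 2.55 in heterozygous libraries. For miR-148a (chr6:51269812-51269910, minus strand), miR-148a-5p measured 11.8, 20.5, 16.2 and 20.9 CPM in null and 35.2, 44.1, 32.9 and 44.6 CPM in heterozygous libraries (log2 fold change -1.20, SE 0.37, adjusted p = 0.0354). Its partner miR-148a-3p, one of the 10 most abundant miRNAs, did not pass the test (log2 fold change 0.68, SE 0.25, adjusted p = 0.0651). Heterozygous replicate 1 was the highest of its group for this 3p arm, at 47218 CPM. The call for miR-148a-5p did not survive 7 of the 8 omissions of a library, with adjusted p up to 0.126 and a log2 fold change of -1.01 to -1.28; of the 8 it was kept only without null replicate 2, and it was lost with no filter on low counts. For miR-93, from an exon of Mcm7, miR-93-3p measured 15.1, 17.9, 14.8 and 14.6 CPM and 33.5, 37.5, 50.6 and 34.5 CPM (log2 fold change -1.31, SE 0.38, adjusted p = 0.0242), while miR-93-5p was at 4856 ± 1045 CPM in null and 4865 ± 598 CPM in heterozygous cells. The call for miR-93-3p was lost without heterozygous replicate 3 (-1.16, adjusted p = 0.0733), null replicate 1 (-1.25, adjusted p = 0.0886), null replicate 3 (-1.28, adjusted p = 0.0712) or null replicate 4 (-1.26, adjusted p = 0.0608). In each of these hairpins the minor to major ratio was lower in every null library. For miR-130b only the major arm passed the test. The minor arm, miR-130b-3p, was also lower, at -1.16 (adjusted p = 0.0513), and the ratio of the arms overlapped between the genotypes.

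**Figure D3:**
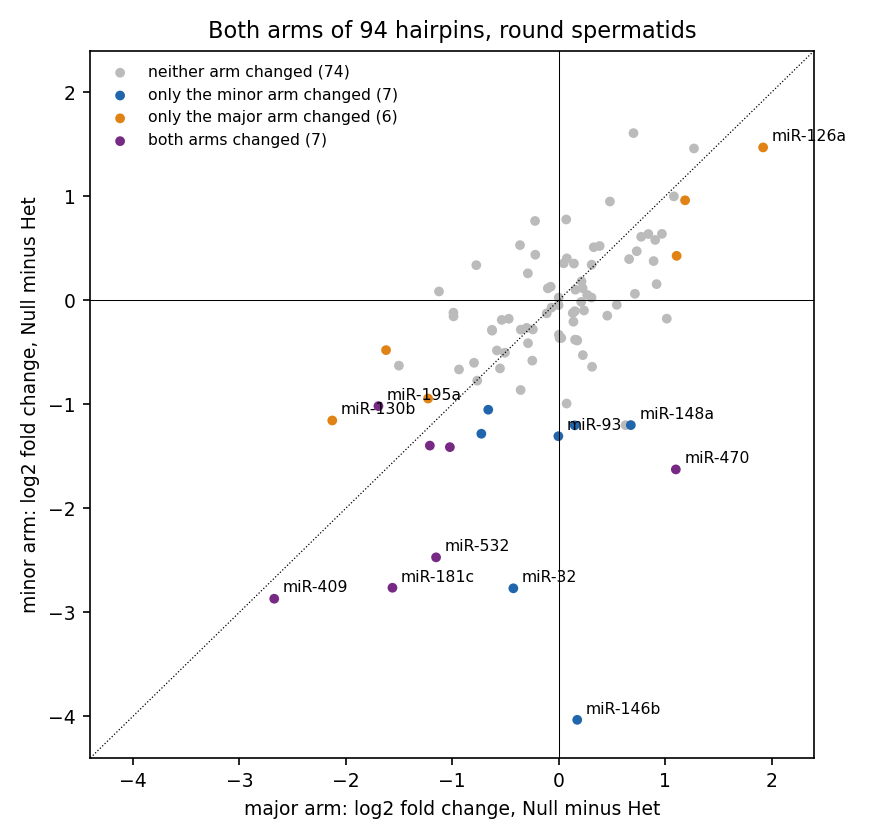
Log2 fold change (null minus heterozygous) of the minor arm against that of the major arm for 94 hairpins with both arms tested; the dotted line marks equal change. miR-146b lies lowest, at -4.03 for the minor and 0.17 for the major arm, and miR-470 has arms at -1.63 and 1.10.

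One value per library was also taken, the median over 123 hairpins with at least 50 counts of log2((minor arm + 0.5) / (major arm + 0.5)). It was -5.69 ± 0.142 in null (SD, n = 4) and -5.39 ± 0.124 in heterozygous libraries (n = 4), a difference of -0.305 (exact two-sided permutation test, p = 0.0286, the smallest that 4 against 4 can give). The groups were barely apart, with null replicate 1 at -5.552 and heterozygous replicate 1 at -5.547. Wild type libraries ran from -5.66 to -5.21, so they reached into the null range. Restricted to the 57 hairpins with 500 counts or more, the difference was -0.303 and p was 0.371, and with 5 in place of 0.5 they were -0.257 and 0.229.

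Of the 14 increases, the largest were miR-150-5p and miR-126a-3p. miR-150-5p, a miRNA known from lymphocytes (chr7:45121757-45121821, plus strand), measured 70.6, 20.5, 45.8 and 50.04 CPM in null replicates 1 to 4 and 11.7, 3.27, 7.59 and 14.4 CPM in heterozygous replicates 1 to 4 (log2 fold change 2.30, SE 0.52, adjusted p = 0.00837). miR-126a-3p, the endothelial miRNA of the Egfl7 gene (chr2:26591357-26591429, plus strand), measured 5744, 3475, 3010.3 and 1827 CPM and 1138, 857, 881 and 835 CPM (log2 fold change 1.92, SE 0.43, adjusted p = 0.00837). Neither overlapped, null replicate 1 was highest for both, and the log2 fold changes ran from 2.00 to 2.63 and from 1.62 to 2.13 when 1 library was left out, with the calls kept. The heterozygous levels of miR-150-5p were low. Replicates 2 and 3 lay at or under the limit of 3 counts, which is 4.90 and 7.59 CPM in these libraries. Wild type libraries held 24.8 ± 15.5 CPM of miR-150-5p and 1254 ± 801 CPM of miR-126a-3p (SD, n = 4).

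Both belong to marker lists of other cell types, whose summed levels are given here since germ cell fractions may hold such cells. Of 2 endothelial miRNAs tested 1 was higher and 0 lower (against 3.53% higher of all 397), the median was 1.70, and the summed level ran from 1887 to 5914 CPM in null and from 860.5 to 1177 CPM in heterozygous libraries. The 5 white blood cell miRNAs summed to 508 to 623 CPM and 420.2 to 598 CPM, with 1 higher (20%), 0 lower and a median of 0.23. miR-142a-3p and miR-223-3p of this list were at -0.53 and 0.55. The 3 red blood cell miRNAs tested summed to 115 to 5125 CPM in null and 212 to 1254 CPM in heterozygous libraries, had a median of 1.47 and gave no call. Null replicate 4 alone held the high value, with 4220.3 CPM of miR-451a. No marker of these lists was at 0 in all 8 libraries, and the part of such cells in the increases was not tested.

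Among 7 miRNAs of peritubular and mesenchymal cells, 2 were higher and 0 lower (28.6%, against 13.1% called and 3.53% higher of all 397; none with library totals), with a median of 0.43 and sums of 7736 to 10628 CPM in null and 4024 to 8933 CPM in heterozygous libraries. The called pair was miR-199a-3p and miR-199b-3p, which have 1 sequence and so count the same reads. miR-199a-3p measured 4917, 2790.1, 4807 and 3920.0 CPM in null replicates 1 to 4 and 1175, 2219, 2144 and 2086 CPM in heterozygous replicates 1 to 4 (log2 fold change 1.11, SE 0.29, adjusted p = 0.0166). Its count was 1.99 to 2.01 times that of miR-199b-3p in every one of the 24 libraries, and the fold change of miR-199b-3p was 1.11. The call for miR-199a-3p was lost without heterozygous replicate 1 (0.93, adjusted p = 0.0447) or null replicate 3 (1.02, adjusted p = 0.0536), and with library totals (0.95, adjusted p = 0.0264), and that for miR-199b-3p without heterozygous replicate 1 (0.94, adjusted p = 0.04999) or null replicate 3 (1.03, adjusted p = 0.0536), and with library totals (0.95, adjusted p = 0.0307). miR-143-3p and miR-145a-5p, the defining miRNAs of smooth muscle and peritubular cells, were at 0.02 and -1.12 and gave no call.

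Gonadal somatic cells, such as Sertoli cells, are known for miR-202 (chr7:139957689-139957760, minus strand). miR-202-5p measured 15557, 7943, 12178 and 10382 CPM in null replicates 1 to 4 and 2692, 7986, 4526 and 5012 CPM in heterozygous replicates 1 to 4 (log2 fold change 1.19, SE 0.38, adjusted p = 0.0384). Null replicate 2 lay just under the highest heterozygous library. The call was lost without heterozygous replicate 1 (0.98, adjusted p = 0.102), heterozygous replicate 3 (1.16, adjusted p = 0.0681), heterozygous replicate 4 (1.18, adjusted p = 0.0833), null replicate 1 (1.06, adjusted p = 0.0975) or null replicate 3 (1.16, adjusted p = 0.0849), and with library totals (1.03, adjusted p = 0.0617). Of the 2 arms 1 was higher and 0 lower, against 3.53% higher of all 397 (none of the 2 with library totals). The median was 1.07, and the sums of both arms were 8291 to 16129 CPM and 2841 to 8203 CPM. The 4 spermatogonial miRNAs gave no call, with a median of 0.79 and sums of 12179 to 15124 CPM and 10464 to 17126 CPM. The part of these cells in the comparison was not tested.

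The let-7 family, which is known to favour differentiation over proliferation, leaned to higher values in null cells. Of 13 tested arms 11 had a log2 fold change above 0 (213 of all 397), 3 passed the test as higher and 0 as lower (23.1%, against 13.1% called and 3.53% higher of all 397), and the median was 0.72. With library totals the median was 0.57 and no member was called. All 9 miRNAs with the seed GAGGUAG were above 0, from 0.22 to 1.14. let-7c-5p measured 15142, 7726, 15052 and 10213 CPM in null replicates 1 to 4 and 3239, 5937, 7330.2 and 5675 CPM in heterozygous replicates 1 to 4 (log2 fold change 1.12, SE 0.29, adjusted p = 0.0153). let-7e-5p measured 781, 399, 640.4 and 567 CPM and 139, 302, 327 and 319 CPM (log2 fold change 1.14, SE 0.32, adjusted p = 0.0216). For both, null replicates 1 and 3 were the highest libraries and heterozygous replicate 1 the lowest. miR-98-5p, from an intron of Huwe1 on the X chromosome, measured 659, 261, 643 and 444 CPM and 164, 249.8, 321 and 207 CPM (log2 fold change 1.10, SE 0.34, adjusted p = 0.0341), with null replicate 2 among the heterozygous libraries. let-7c-5p was not called without heterozygous replicate 1 (0.93, adjusted p = 0.0410) or null replicate 3 (0.99, adjusted p = 0.0530), and with library totals (0.95, adjusted p = 0.0189), let-7e-5p not without heterozygous replicate 1 (0.92, adjusted p = 0.0536), null replicate 1 (1.03, adjusted p = 0.0579) or null replicate 3 (1.10, adjusted p = 0.0538), and with library totals (0.98, adjusted p = 0.0378), and miR-98-5p not without heterozygous replicate 1 (0.96, adjusted p = 0.0923), heterozygous replicate 4 (1.04, adjusted p = 0.0874), null replicate 1 (0.98, adjusted p = 0.0961) or null replicate 3 (0.95, adjusted p = 0.101), and with library totals (0.93, adjusted p = 0.0510) or a term for library number (1.09, adjusted p = 0.0501). The most abundant member, let-7g-5p, did not pass the test, at 0.22.

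miR-99a-5p, which shares the transcript Mir99ahg with let-7c-1 (chr16:77598936-77599000, plus strand), was the most abundant changed miRNA. It measured 51636, 32573, 72969 and 34075 CPM in null replicates 1 to 4 and 14501, 26309.7, 22228 and 24496 CPM in heterozygous replicates 1 to 4 (log2 fold change 1.13, SE 0.31, adjusted p = 0.0216). The same libraries as for let-7c-5p were at the extremes, and the call was lost without heterozygous replicate 1 (0.97, adjusted p = 0.0606) or null replicate 3 (0.85, adjusted p = 0.0849), and with library totals (0.93, adjusted p = 0.0307). miR-99b-5p and miR-100-5p, which have the same seed, were at 0.78 (adjusted p = 0.196) and 0.83 (adjusted p = 0.0889). miR-760-3p measured 417, 184, 450.3 and 204 CPM and 45.2, 142, 152 and 157 CPM (log2 fold change 1.35, SE 0.43, adjusted p = 0.0377), with heterozygous replicate 1 far under the rest. It was not called without heterozygous replicate 1 (1.07, adjusted p = 0.0876), heterozygous replicate 4 (1.49, adjusted p = 0.0539), null replicate 1 (1.24, adjusted p = 0.0961) or null replicate 3 (1.12, adjusted p = 0.117), and with library totals (1.14, adjusted p = 0.0573). The number of increases rested on a few libraries: 2 miRNAs were called higher without null replicate 3, 8 without null replicate 1, 4 without heterozygous replicate 1, 22 without heterozygous replicate 2 and 25 without null replicate 2, against 14 with all.

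The X-linked testis cluster, a rapidly evolving group of miRNAs of male germ cells, held the most counts of the lists examined here. Its summed level was 235544 to 451165 CPM in null and 267534 to 301909 CPM in heterozygous libraries. Of 35 tested arms 2 were higher and 3 lower, 14.3% against the 13.1% of all miRNAs, and the median was -0.21. Besides miR-470, miR-547-3p (chrX:67988374-67988451, minus strand) was higher, at 11763, 5143, 12757 and 8061 CPM in null replicates 1 to 4 and 2067, 5529, 4022 and 4458 CPM in heterozygous replicates 1 to 4 (log2 fold change 1.23, SE 0.32, adjusted p = 0.0157). Its null replicate 2 lay under the highest heterozygous library, and the call was lost without null replicate 3 (1.05, adjusted p = 0.0536). miR-742-5p measured 15.1, 17.9, 10.8 and 12.5 CPM and 53.6, 50.6, 22.8 and 31.7 CPM (log2 fold change -1.52, SE 0.42, adjusted p = 0.0210). miR-883b-5p measured 73.9, 74.2, 56.6 and 73 CPM and 136, 108, 162 and 169.8 CPM (log2 fold change -1.05, SE 0.27, adjusted p = 0.0153). Both were lower in every null library, but neither call was independent of single libraries. miR-742-5p was not called without heterozygous replicate 1 (-1.35, adjusted p = 0.0582), null replicate 1 (-1.53, adjusted p = 0.0576) or null replicate 3 (-1.40, adjusted p = 0.0718), and miR-883b-5p not without heterozygous replicate 3 (-0.98, adjusted p = 0.0428), heterozygous replicate 4 (-0.96, adjusted p = 0.0459) or null replicate 3 (-0.96, adjusted p = 0.0536). Over the whole X chromosome, 9 of 60 miRNAs with loci there alone changed (15.0%, 3 higher and 6 lower), and 43 of 332 with autosomal loci alone (13.0%, 11 higher and 32 lower), with medians of 0.02 and 0.04. A locus was found for 395 of the 397 miRNAs. X-linked miRNAs took 27.4% to 35.6% of counts in null and 28.5% to 32.5% in heterozygous libraries.

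The 10 most abundant miRNAs of heterozygous round spermatids were miR-34c-5p, miR-881-3p, let-7g-5p, miR-191-5p, miR-148a-3p, miR-871-3p, miR-92a-3p, miR-465c-5p, miR-465b-5p and miR-99a-5p, of which only miR-99a-5p passed the test. miR-34c-5p, the germ cell miRNA of the miR-34 and miR-449 family that is needed for sperm formation, measured 67854, 107676, 71568 and 55481 CPM in null replicates 1 to 4 and 105568, 159687, 74486 and 89729 CPM in heterozygous replicates 1 to 4 (log2 fold change -0.51, SE 0.26, adjusted p = 0.196). Heterozygous replicate 2 was its highest library, and the groups overlapped. All 7 tested arms of the miR-34 and miR-449 list had a log2 fold change below 0, with a median of -0.50 and no call in either direction. One was above 0 without null replicate 1. Their summed level was 79771 to 141448 CPM in null and 111524 to 198874 CPM in heterozygous libraries, so the germ cell markers were far from 0, although this list does not separate round spermatids from spermatocytes. miR-881-3p, of the X-linked cluster, measured 130737, 113210.0, 216868 and 71040.1 CPM and 126879, 100981, 91182 and 98957 CPM (log2 fold change 0.35, SE 0.26, adjusted p = 0.403), with null replicate 3 the highest and null replicate 4 the lowest. The log2 fold changes of the other abundant miRNAs were 0.15 for miR-191-5p, -0.30 for miR-871-3p, 0.32 for miR-92a-3p, 0.02 for miR-465c-5p and 0.01 for miR-465b-5p.

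**Figure D4:**
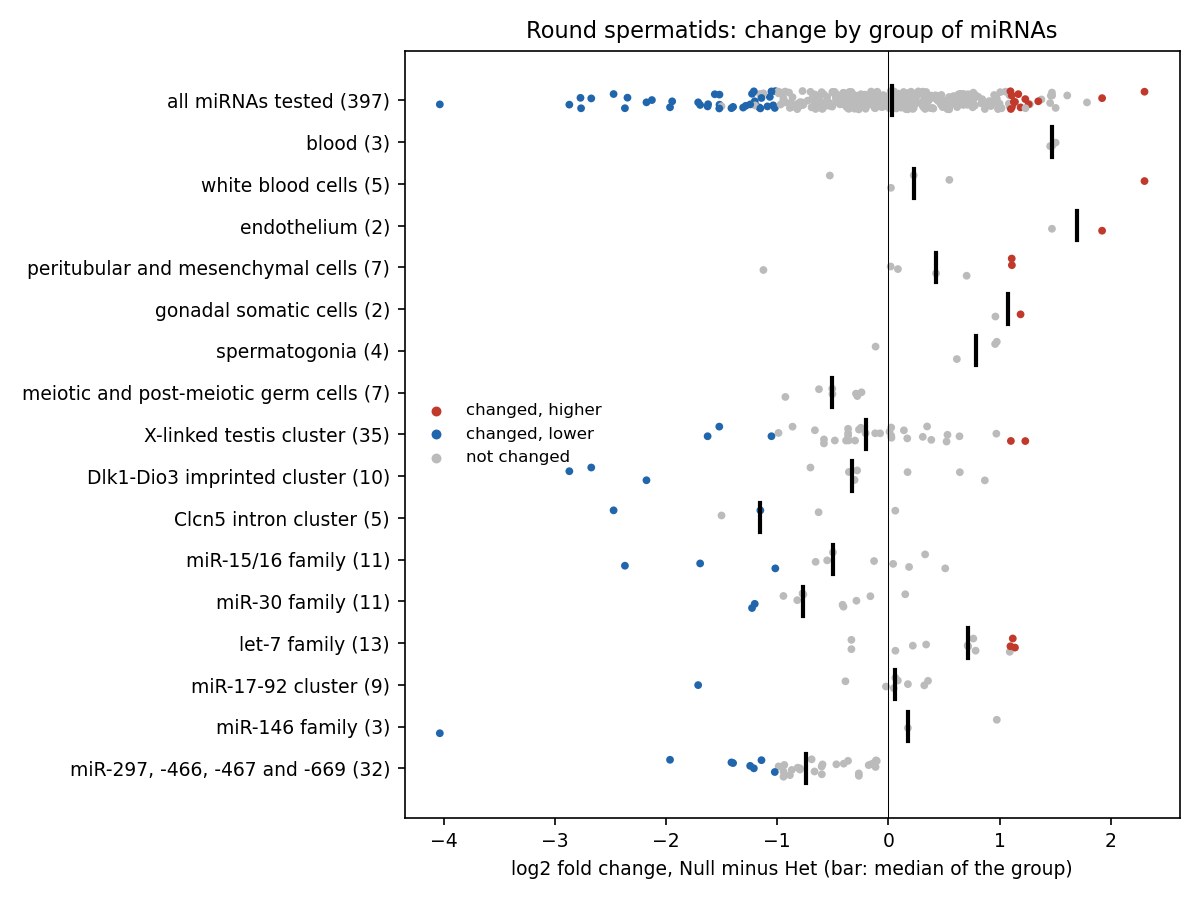
Log2 fold change (null minus heterozygous) of each tested miRNA by group, with the number tested in parentheses and black bars at the group medians. The bars of the let-7 family (0.72) and of the miR-297, miR-466, miR-467 and miR-669 group (-0.74) lie on opposite sides of the bar for all miRNAs (0.04).

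Against wild type, heterozygous round spermatids gave no changed miRNA among the 397 (59 at an unadjusted p under 0.05, 14.9%; lowest adjusted p = 0.0820). The null libraries gave 65 against wild type (16.4%). Of the 52 changed against heterozygous cells, 36 also changed the same way against wild type, with the same null libraries in both comparisons. The 16 exceptions were 12 increases and 4 decreases, and for all 12 increases the wild type mean lay between the null and heterozygous means. Wild type libraries held 25407 ± 9175 CPM of miR-470-5p, 9468 ± 2663 CPM of let-7c-5p and 299 ± 134 CPM of miR-760-3p (SD, n = 4), and null against wild type these stood at 0.22, 0.35 and 0.07 on the log2 scale. The same contrast gave -3.53 for miR-409-3p, -2.63 for miR-130b-5p and -3.06 for miR-541-5p, each lower in null also against wild type. miR-139-5p, at 47.4 ± 5.37 CPM in null, 98.9 ± 28.7 CPM in heterozygous and 200.4 ± 86.7 CPM in wild type libraries, was called against heterozygous cells (log2 fold change -1.07, SE 0.32, adjusted p = 0.0323). This call was lost without heterozygous replicate 1 (-1.05, adjusted p = 0.0635), heterozygous replicate 3 (-1.07, adjusted p = 0.0655), heterozygous replicate 4 (-0.88, adjusted p = 0.104), null replicate 1 (-1.08, adjusted p = 0.0886), null replicate 3 (-0.99, adjusted p = 0.0937) or null replicate 4 (-1.04, adjusted p = 0.0739).

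In spermatocytes the same genotypes gave as many changed miRNAs, 52 of the 397 (13.1%), with 13 higher (3.27%) and 39 lower (9.82%). Of the 52 changed in round spermatids, 48 had the same sign in spermatocytes and 25 changed the same way there. The share of all 397 with the same sign in both was not counted, so the 48 have no background. The difference of the changes between the cell types passed the test for no miRNA in edgeR with TMM scaling (lowest adjusted p = 0.110; 19 at an unadjusted p under 0.05, 4.79%). That fit treated all libraries as independent, and the labels do not say whether libraries of the cell types share mice. Within the null and within the heterozygous group, the round spermatid and the spermatocyte library of the same replicate number have adjacent library numbers. The miRNA with the lowest p was miR-195a-3p, at -1.02 in round spermatids and 1.15 in spermatocytes, and it was called by DESeq2 (adjusted p = 0.00610) and with library totals (adjusted p = 0.0437). The difference was -2.14 ± 0.51 (SE). For miR-150-5p the values were 2.30 and -1.86, and for miR-92a-1-5p -1.71 and 0.28, and neither difference passed the test. miR-497a-5p, miR-409-5p and miR-532-3p stood at -2.89, -3.69 and -2.48 in spermatocytes, each changed there as well.

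**Figure D5:**
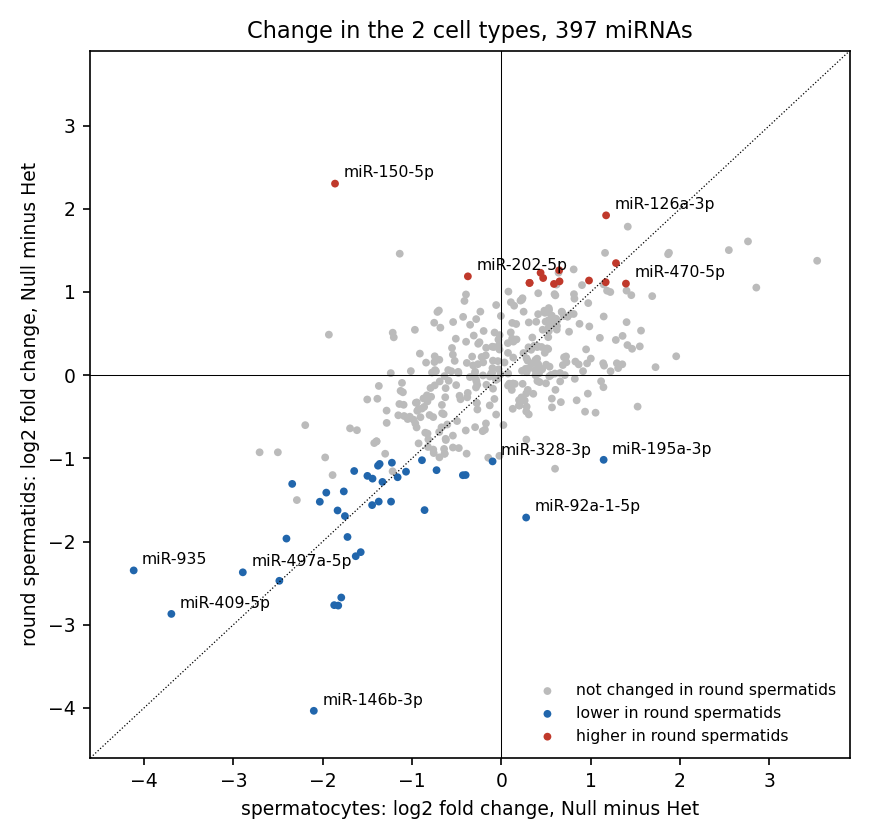
Log2 fold change (null minus heterozygous) in round spermatids against that in spermatocytes for 397 miRNAs, coloured by the call in round spermatids; the dotted line marks equal change. Of the 52 coloured points 48 have the same sign on both axes, a share that was not counted for all 397. miR-195a-3p is at -1.02 in round spermatids and 1.15 in spermatocytes.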

How the data were processed

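Small RNA libraries were made by the authors with the NEBNext Small RNA kit and trimmed with Trim Galore, which dropped reads under 10 nt. They were matched to the mature mouse miRNAs of miRBase v22.1 with the mapper and quantifier of miRDeep2. What the authors deposited are raw counts for 1978 mature miRNAs and 24 libraries, unscaled and with families kept apart. A read can count for several mature miRNAs, so miRNAs of identical or near-identical sequence share reads. In all libraries, 4 tested miRNAs had the same counts as another. Identical sequences did not always have equal counts. miR-199a-3p, with hairpin genes Mir199a-1 and Mir199a-2, held 1.99 to 2.01 times the counts of miR-199b-3p, with Mir199b alone. Whether reads count once per hairpin gene was not tested, so levels and ranks of miRNAs with several hairpin genes may be too high beside others. Every column was mapped to a sample through its label.

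From these counts, the miRNAs that reached 10 counts in 3 or more of the 8 null and heterozygous round spermatid libraries were tested. The quasi-likelihood test of edgeR 4.0.16 (R 4.3.3) was fitted with TMM scaling to the 12 round spermatid libraries of 3 genotypes, without covariates, and p-values were adjusted by Benjamini-Hochberg over all 397 miRNAs. Changed means an adjusted p under 0.05 with a log2 fold change of 1 or more in size. Standard errors (SE) are of the log2 fold change. The interaction with cell type and the changes in spermatocytes were fitted to all 24 libraries. Library totals and minor arm shares were compared by exact two-sided permutation tests. The script was tested on simulated data. Intervals and the limit of 3 counts at a 0 describe counting error alone, as PCR copies are not separate molecules. Labels do not say whether libraries of a group share mice, so the spread may be partly technical.

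The miRNAs named are the 10 most abundant in heterozygous cells, the 8 largest increases and decreases without overlap, the 10 most abundant changed ones, changed members of the lists, and 12 more chosen after their values were seen. Members and lists were chosen with earlier results of these data known, so list counts are descriptions. Loci are RefSeq hairpin genes of GRCm38.p6, and hosts are from GENCODE M21 of the same build. Alternatives were DESeq2 1.42.0, RLE scaling, library totals, other filters, the 8 libraries alone, a replicate block, a library number term, sums over seeds and leaving out each library. The library number term split libraries numbered 60 or below from those numbered 65 or above. Within either part, every heterozygous round spermatid library had a lower number than every null one. The term therefore cannot separate genotype from library order. After the data were seen, a fit with identical rows kept once and a fit without null replicates 1 and 3 were added.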

Additional observations from a re-analysis of the deposited data

Results flagged for a closer look

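In 21 of 156 groups of 4 libraries examined (the miRNAs named and those of the marker lists, in each genotype), 1 library lay far from the other 3 by Dixon's criterion. Chance would give about 7.8 if the groups were independent. They are not, since each library enters many groups, some miRNAs share reads and many were named by their values, so the excess cannot be weighed. Heterozygous replicate 1 and null replicate 4 accounted for most of them.

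Heterozygous replicate 1 was the lowest of its group for 12 of the 14 increases, and lay this far from the other 3 for 4 of them. It held 45.2 CPM of miR-760-3p against 142 to 157 CPM in the other 3 libraries, and 139 CPM of let-7e-5p against 302 to 327 CPM. For miR-199a-3p it held 1175 CPM against 2086 to 2219 CPM, and for miR-199b-3p 586 CPM against 1043 to 1108 CPM. It was the highest for miR-148a-3p, at 47218 CPM against 28367 to 31201 CPM, and for miR-126a-3p, at 1138 CPM against 835 to 881 CPM.

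Null replicate 4 was the highest of its group for the red blood cell miRNAs, with 4220.3 CPM of miR-451a against 74.2 to 579.7 CPM, 425 CPM of miR-486a-5p against 20.5 to 62.2 CPM and 463 CPM of miR-486b-5p against 20.5 to 70.6 CPM. It was also the highest for miR-181d-5p, at 202 CPM against 123 to 136 CPM. It was the lowest for miR-155-5p, at 58.4 CPM against 73.9 to 75.5 CPM, and for miR-21a-5p, at 8536 CPM against 10531 to 10873 CPM.

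Of the other null libraries, replicate 1 was the lowest for miR-466g, at 8.40 CPM against 20.9 to 23 CPM, and for miR-669a-3p, at 42.0 CPM against 113 to 121 CPM. The same library was the highest for miR-126a-5p, at 169.7 CPM against 43.1 to 61.4 CPM. Null replicate 3 was the lowest for miR-883b-5p, at 56.6 CPM against 73.0 to 74.2 CPM, and for miR-181c-5p, at 5.39 CPM against 11.8 to 12.8 CPM. Null replicate 2 held 17.9 CPM of miR-93-3p against 14.6 to 15.1 CPM.

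Among heterozygous libraries, replicate 2 was the lowest for miR-935, at 44.1 CPM against 68.3 to 72 CPM, and for miR-30e-3p, at 2782 CPM against 4189.8 to 4322 CPM. Replicate 4 held 124 CPM of miR-145a-3p against 22.9 to 32.9 CPM.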

How the results depend on the processing

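The number of decreases moved less than that of increases. Against 14 higher miRNAs, 3 were called with library totals, 25 with no filter on low counts, 22 on the adjusted p alone and 8 with a replicate block. Summed over shared seeds, 25 were lower against 38. Leaving out 1 library gave 29 to 65 changed miRNAs, 2 to 25 higher and 27 to 40 lower. Without null replicates 1 and 3, a fit added after the data were seen, 14 miRNAs changed, 0 higher and 14 lower. DESeq2 called 59 and RLE scaling 55, of which 51 and 52 were among the 52. With no filter 64 changed, 47 of them among the 52, and with 10 counts in each library 40, of which 32 were. The cause of these shifts was not tested, apart from the fewer samples or the other number of miRNAs that a fit holds by construction. Of 43 changed miRNAs followed through these fits, 20 of 30 decreases and 2 of 13 increases kept their call in every fit with all or all but 1 of the libraries that tested them, and none changed sign. With 10 counts required in each of the 8 libraries, 10 of these 22 were not tested. With library totals 10 of the 13 increases and 0 of the 30 decreases lost their call.

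Replicate numbers were not used as pairs, since libraries of the 2 genotypes with the same number did not deviate together (correlations over 397 miRNAs of -0.306, -0.133, 0.0767 and -0.111 for numbers 1 to 4). With the replicate block 44 miRNAs changed, 42 of them among the 52, and 5 increases and 1 decrease of the 43 followed, miR-99a-5p among them, were not called. The difference between cell types passed for 1 miRNA with DESeq2 and 1 with library totals, against 0, and for 0 in each fit without 1 library. The minor arm share difference of -0.305 was -0.303 with at least 500 counts, -0.257 with 5 added, and -0.359 to -0.247 without 1 library, where 3 against 4 can give no p below 0.0571. The difference in library totals ran from -56531 to 127831 without 1 library, against 58392.

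Depth limits scarce miRNAs: 3 counts correspond to 4.04 to 7.67 CPM, and several null values of the largest decreases lie at or below this. Heterozygous replicates 2 and 3 of miR-150-5p, the largest increase, also lie at or below 3 counts. Of the named decreases, miR-146b-3p, miR-409-5p, miR-32-3p, miR-181c-3p, miR-181c-5p and miR-742-5p had under 10 counts in every null library. They passed the filter through heterozygous libraries alone.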

Other observations

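The filter on low counts has an edge at 10. The 14 miRNAs just inside it, with exactly 10 counts in the library that decided, and the 9 just outside, with 9 counts there, held 54 to 81 and 53 to 70 counts over the 8 libraries, and none of the 14 changed.

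Between the cell types, miR-195a-3p stood apart from its partner arm. miR-195a-5p was lower in null cells in round spermatids (-1.69) and spermatocytes (-1.75) on the log2 scale, whereas miR-195a-3p was at -1.02 and 1.15. The values of miR-202-5p were 1.19 and -0.37, and those of miR-150-5p 2.30 and -1.86, and with TMM scaling none of these differences passed the test in edgeR, although that of miR-195a-3p did with library totals (adjusted p = 0.0437) and in DESeq2 (adjusted p = 0.00610).

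A comparison of base composition between decreases and other miRNAs was void, since only 27 of the 38 decreases (and 13 of the 14 increases) had a sequence in the table used.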
